A study of Rattus norvegicus with 6 samples.

Results

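Collagens that build fibrils, and one that sits on the fibril surface, were followed in rat bone marrow cells treated with low-intensity pulsed ultrasound (LIPUS). LIPUS is a mechanical stimulus given as short bursts of sound waves. The genes were Col1a2, Col3a1, Col5a1, Col5a2, Col5a3, Col11a1, Col11a2, Col2a1 and Col12a1, and their probes were those whose accession maps to one of these symbols. Of these 9 genes, 6 had a probe, 9 probes in all among the 41012 gene probes of the array. Col5a2, Col11a1 and Col12a1 had no probe by this match and were not analysed here. Marrow cells of male rats aged 8 weeks were cultured under osteogenic conditions and taken on day 10, from 3 LIPUS samples and 3 control samples that received no treatment. RNA of each was labelled with Cy3 and put on 1 single-colour array. The labels do not say whether replicates were separate animals or cultures, so the p-values measure only the spread between these samples.

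A fibrillar collagen is a long helix of 3 chains, secreted as a procollagen and assembled into fibrils after its end propeptides are cut. Collagens I and III form the bulk of fibrils in bone and other connective tissue, collagen II does so in cartilage, and collagens V and XI are minor partners that start fibrils and limit their width. The minor collagens share chains in mixed molecules, and osteoblasts are a main source of collagens I and V.

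The probes that passed were those of minor collagen chains. Probes of Col1a2 and Col3a1 could not be read from the spot brightness and those of Col2a1 did not pass, so a change particular to the minor collagens was not shown. What the authors' value table gives for Col1a2 and Col3a1 is described below. Col11a2 and Col5a1 rose in LIPUS samples, 2.85-fold and about 2.06-fold, and Col5a3 fell 2.21-fold. Of the 9 probes, 3 rose, 1 fell and 5 did not pass at a limma adjusted p under 0.05. Over all 23260 probes tested, 6.51% passed, 2.86% higher and 3.65% lower in LIPUS. The median log2 change over all probes tested was 0.04. The median over the 9 probes, 0.25, is the value of a Col1a2 probe at the scanner's upper limit, so it shows no shift of the family. The 3 probes of Col1a2 and Col3a1, which are among the 5 and give no estimate there, were at that limit on all 6 arrays. Over the 6 probes under it the median was 1.04, which lies between the 2 probes of Col5a1 and so reflects that gene. LIPUS and control arrays did not overlap for 4 of the 9 probes, against 27.2% of all probes tested.

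The regulatory sequence next to these genes differs between members, and short stretches are shown for the genes that changed and for Col1a2. In the 250 bases before each annotated start (RefSeq, build GRCr8), the motif TATAAA, the motif read as CCAAT and the motif GGGCGG were searched on both strands. Capitals mark matches, and each stretch is 30 bases long.
Col11a2, chr20:4817711-4817740, minus strand: ctcggttgctgtGGGCGGGCGGctagaggc
Col5a1, chr3:31606741-31606770, plus strand: gcgggggagatcGGGCGGgtgcagagcttc
Col5a3, chr8:27626113-27626142, minus strand: gaccttagccagCCAATcagcgcgtggtgc
Col5a3, chr8:27625994-27626023, minus strand: agggcgcggccaGGGCGGggtctcgggcag
Col1a2, chr4:33518324-33518353, plus strand: ccctgccctcccATTGGtggagacgttttt
Col1a2, chr4:33518375-33518404, plus strand: aaacttttcccaTATAAAtagggcaggtct
The windows of Col11a2 and Col5a1 held GGGCGG (3 and 1 matches, the first 2 in Col11a2 overlapping), without a match to the other motifs. The window of Col5a3 held GGGCGG at 3 places and CCAAT at 1. Col1a2 alone of these 4 held TATAAA, beside 1 match to CCAAT, read on the other strand and so printed in reverse complement. These matches begin 170 and 221 bases before the annotated start, and whether either acts there was not tested. Of 33469 rat promoters in the same table, 12.9% held TATAAA, while 34% held CCAAT and 30.5% had a match to GGGCGG. The GC content was 62.8% for Col11a2, 71.6% for Col5a1, 68.8% for Col5a3 and 58.4% for Col1a2, against a median of 51.2%. The annotated start of Col11a2 lies 844 bases inside the outer end of the gene in the gene table. That of Col5a1 lies 405 bases inside it, since longer transcripts are annotated. The start of Col5a3 lies 54 bases from that end of its gene. For all 4 genes the start used in these cells is not known from the arrays. Col3a1 and Col2a1 were not matched to a promoter.

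Col11a2 (NM_212528, probe A_44_P527024) encodes the alpha 2 chain of collagen XI, a minor collagen of cartilage fibrils that is also made outside cartilage. Its spot brightness was 46121, 32965 and 31150 on the LIPUS arrays, against 14973, 12745 and 17620 on the control arrays. On the log2 scale, relative to the 75th percentile of each array, its level was 5.57 ± 0.21 in LIPUS and 4.06 ± 0.04 in control (SD, n = 3 each). Every LIPUS array lay above every control array, and the control arrays lay close together. The log2 change was 1.51 ± 0.17 (SE, limma adjusted p = 0.00122). It kept its call whichever array was left out (1.41 to 1.62, limma adjusted p = 0.00425 to 0.00895).

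Col5a1 (NM_134452) encodes the alpha 1 chain of collagen V, which starts fibrils of collagen I. It had 2 probes. Probe A_44_P196079 read 35491, 32443 and 32061 in LIPUS, against 17263, 14446 and 27900 in control. Probe A_43_P13273 read 10470, 10336 and 10550 in LIPUS, against 5080, 4569 and 9209 in control. With both probes the 3 LIPUS arrays were alike and control 3 was the control array nearest to them. The log2 levels were 5.45 ± 0.09 in LIPUS and 4.41 ± 0.29 in control for the first probe, and 3.79 ± 0.13 in LIPUS and 2.74 ± 0.36 in control for the second (SD, n = 3 each). The log2 changes of 1.05 ± 0.18 (SE, limma adjusted p = 0.0103) and 1.04 ± 0.21 (limma adjusted p = 0.017) were nearly equal. The ratio between the 2 probes moved by 0.0023 on the log2 scale (exact permutation test, two-sided, p = 1), less than its SD of 0.078 in LIPUS and 0.088 in control. The first probe lost its call without control 1 (limma adjusted p = 0.0503). The second lost it without control 1, control 2, LIPUS 2 or LIPUS 3 (0.0572 to 0.0724) and with no filter on dim probes (0.0525).

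Col5a3 (NM_021760, probe A_44_P197290) encodes the alpha 3 chain of collagen V, found in fewer tissues than the alpha 1 chain. Its brightness was 1819, 1855 and 1616 on the LIPUS arrays, against 4882, 3626 and 5902 on the control arrays. Its log2 level was 1.26 ± 0.18 in LIPUS and 2.40 ± 0.11 in control (SD, n = 3 each), with no overlap. The log2 change was −1.14 ± 0.17 (SE, limma adjusted p = 0.00432), and the call held whichever array was left out (−1.25 to −1.09, limma adjusted p = 0.0121 to 0.0236).

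**Figure D1:**
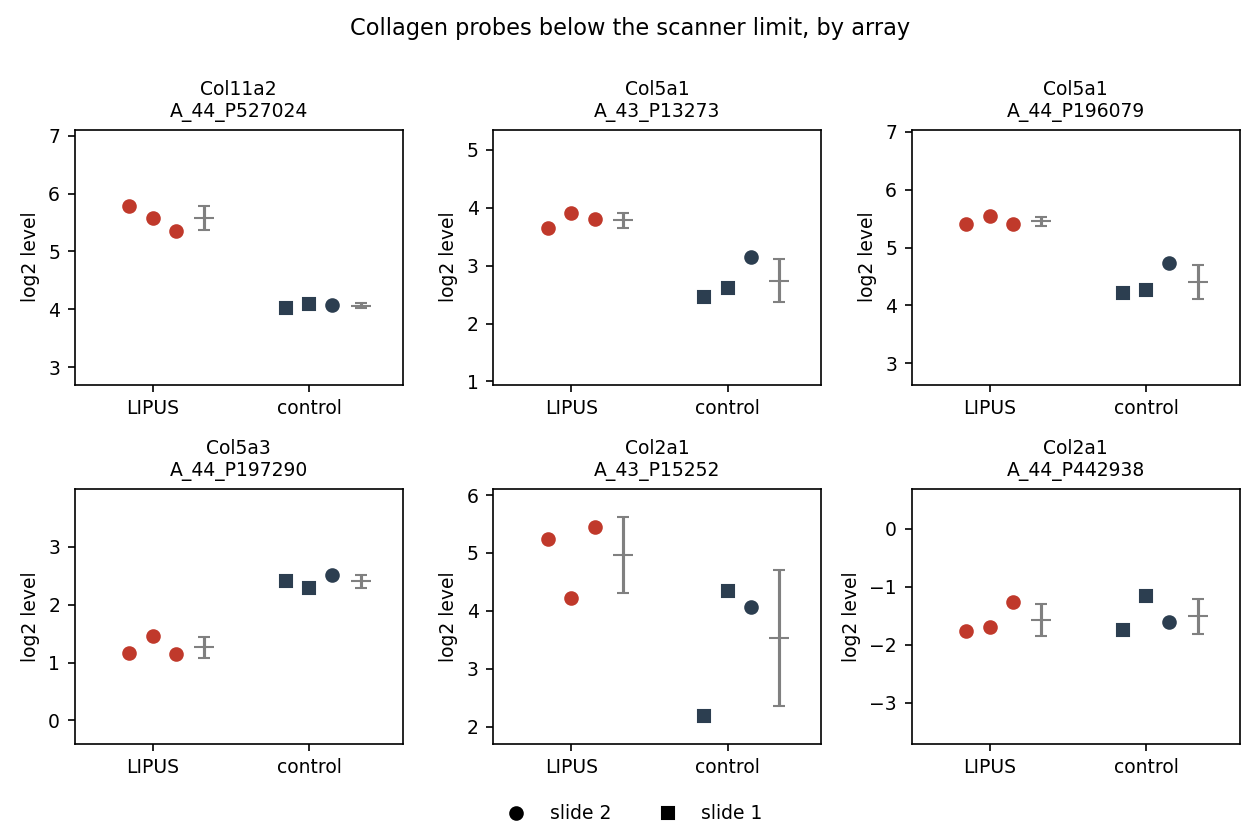
Log2 level of each of the 6 probes under the scanner limit, relative to the 75th percentile of the array, with 1 point for each array and, in grey, the mean ± SD of each group (n = 3). Every panel spans the same height. LIPUS lay above control for Col11a2 and both Col5a1 probes, below it for Col5a3, and overlapped it for both Col2a1 probes; squares and circles mark the 2 slides inferred from the scanned grid.

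The opposite moves of the collagen V chains were also read within each array, where any scaling cancels. These pairs were chosen from genes already called in the same arrays, so the ratios between genes are a description with no test. With the control mean set to 0, the log2 ratio of Col5a1 (A_44_P196079) over Col5a3 was 2.24, 2.08 and 2.25 on the LIPUS arrays and −0.19, −0.03 and 0.22 on the control arrays. The difference was 2.19 with this probe and also 2.19 with the other Col5a1 probe, and 2.48 and 2.74 in the value table. Col11a2 and Col5a1 differed less in their change. The log2 ratio of Col11a2 over Col5a1 was 0.47 higher in LIPUS with either Col5a1 probe, with LIPUS arrays at 0.31 to 0.72 and control arrays at −0.31 to 0.17 for A_44_P196079. In the value table it was 0.55 higher with A_44_P196079 and 0.29 with A_43_P13273. With A_43_P13273 it was 0.27 without control 3 and 0.30 without LIPUS 1, and with A_44_P196079 0.31 and 0.34.

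**Figure D2:**
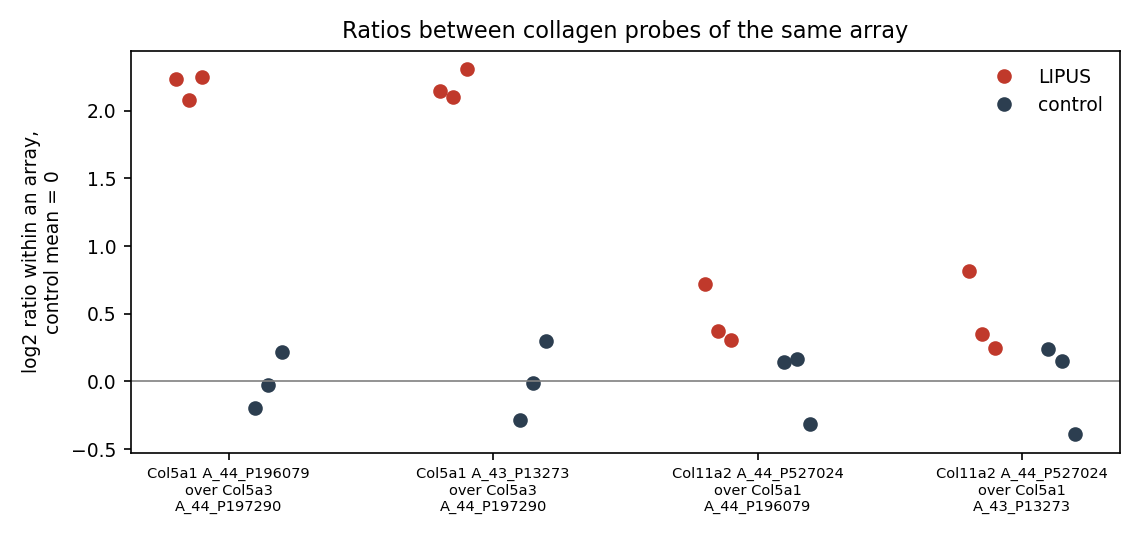
Log2 ratio between 2 collagen probes on the same array, with the mean of the 3 control arrays set to 0 and 1 point for each array. The 3 LIPUS arrays lay between 2.08 and 2.31 for Col5a1 over Col5a3, and between 0.24 and 0.81 for Col11a2 over Col5a1.

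Col2a1 (NM_012929) encodes collagen II, the main fibrillar collagen of cartilage, and its 2 probes did not read alike. Probe A_43_P15252 was bright and uneven, at 31510, 12871 and 33259 in LIPUS, against 4182, 15240 and 17452 in control. In brightness LIPUS 2 lay below control 2 and control 3. On the centred log2 scale it lay at 4.22, below control 2 (4.34) and above control 3 (4.07), so the groups overlapped. Its log2 change of 1.44 ± 0.52 (SE) did not pass (limma adjusted p = 0.138), with a 95% interval of 0.28 to 2.60, and it passed with spike-in scaling (1.09, limma adjusted p = 0.0447). Without control 1, the lowest array, the change was 0.77 (limma adjusted p = 0.296), and with slide as a fixed block it was 0.90 (0.636). Probe A_44_P442938 was dim, at 182, 166 and 252 in LIPUS, against 226, 274 and 268 in control. After local background it stood 108 to 232 above 0, where the background limit of the arrays was 49.6 to 133.4. Its log2 change was −0.07 ± 0.21 (limma adjusted p = 0.885), with an interval of −0.54 to 0.41.

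Col1a2 (NM_053356), the alpha 2 chain of collagen I, and Col3a1 (NM_032085), the only chain of collagen III, could not be read from the spot tables. Of the pixels of their spots, 57% to 90% were at the limit. The spot tables give their 3 probes a log2 change of 0.24 or 0.25, which is the shift of the 75th percentile between the groups and no estimate of the genes: all 304 probes at the limit on every array had a median change of 0.24. The authors' deposited value table holds lower signals of the same arrays, recovered by undoing the log2 from each column's minimum. There Col3a1 stood at 23.81%, 23.31% and 20% of the limit in LIPUS, against 39.99%, 27.29% and 36.43% in control. Before centring every LIPUS array was lower. Once each array was centred on its 75th percentile the groups overlapped, at 6.76 ± 0.17 in LIPUS and 6.89 ± 0.14 in control (log2, SD, n = 3 each). The log2 change was −0.13 ± 0.20 (SE, limma adjusted p = 0.835), with a 95% interval of −0.64 to 0.38, and −0.52 when scaled to spike-in controls (limma adjusted p = 0.282).

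For Col1a2, probe A_43_P12783 stood at 75.32%, 69.16% and 62.45% of the limit in LIPUS, against 99.93%, 86.07% and 81.81% in control. Control 1 was therefore at the limit in this table too. The log2 change after centring was 0.11 ± 0.19 (SE, limma adjusted p = 0.853), with a 95% interval of −0.38 to 0.60. It was 0.13 without control 1 and turned to −0.28 with spike-in scaling (limma adjusted p = 0.504). The other probe, A_44_P458851, was at 99.71% to 99.91% of the limit on all 6 arrays and gives no estimate. For both genes these intervals include 0 and changes in either direction, so no change was detected and equality was not shown.

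**Figure D3:**
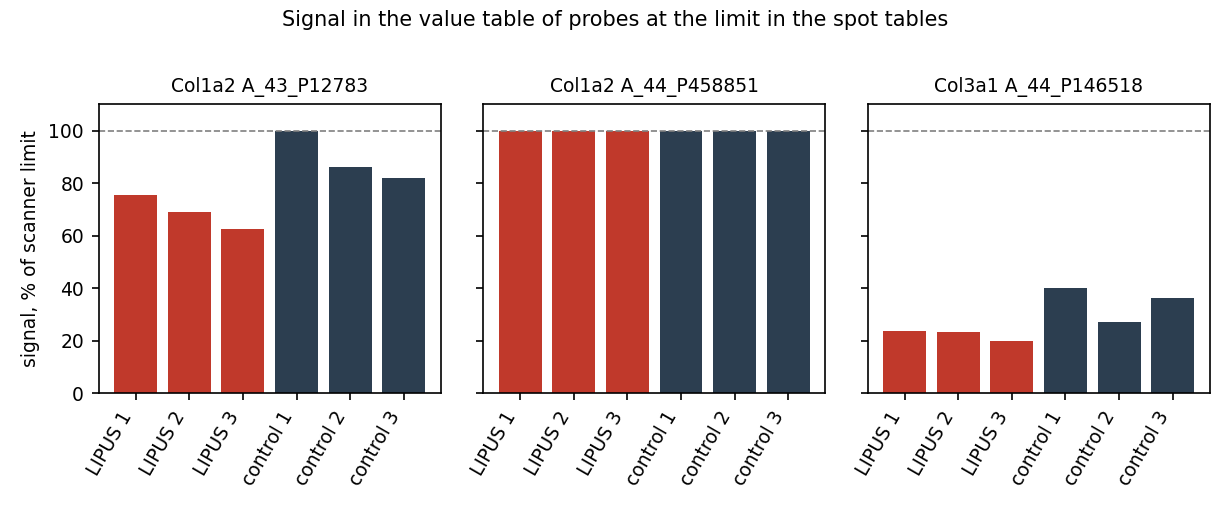
Signal in the authors' value table of the 3 probes that were at the scanner limit in the spot tables, in percent of the limit, with 1 bar for each array. Col3a1 stood between 20% and 39.99%, the first Col1a2 probe reached 99.93% on control 1, and the second Col1a2 probe was at the limit throughout.

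The value table also gave a second reading of the other collagens. Col11a2 was higher by 1.56 ± 0.22 and Col5a3 lower, at −1.47 ± 0.21 (log2, SE). Col5a1 was higher by 1.01 ± 0.24 with A_44_P196079 and by 1.28 ± 0.23 with A_43_P13273. Over all 41012 probes of that table limma called 0 (0%), with 5337 at an unadjusted p under 0.05, among them these 4 probes (limma adjusted p = 0.0874 to 0.196). Over the 23260 probes above background in the spot tables, a choice made after seeing the data, 3.67% were called, 1.32% higher and 2.36% lower. Col11a2 (limma adjusted p = 0.0158), Col5a3 (0.0156) and the A_43_P13273 probe of Col5a1 (0.0262) passed there, and A_44_P196079 did not (0.0576). With slide as a fixed block as well, limma called 0 probes there, with 3543 and 4 collagen probes at an unadjusted p under 0.05. In the value table the groups did not overlap for 5 of the 8 collagen probes that it reads, against 21.6% of all its probes, dim ones included. The Col1a2 probe A_44_P458851 was left out because it is at the limit there. The 5 include both Col5a1 probes and the dim Col2a1 probe, for which the groups overlapped in the spot tables. The dim Col2a1 probe turned to 0.65 in the value table (limma adjusted p = 0.454).

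**Figure D4:**
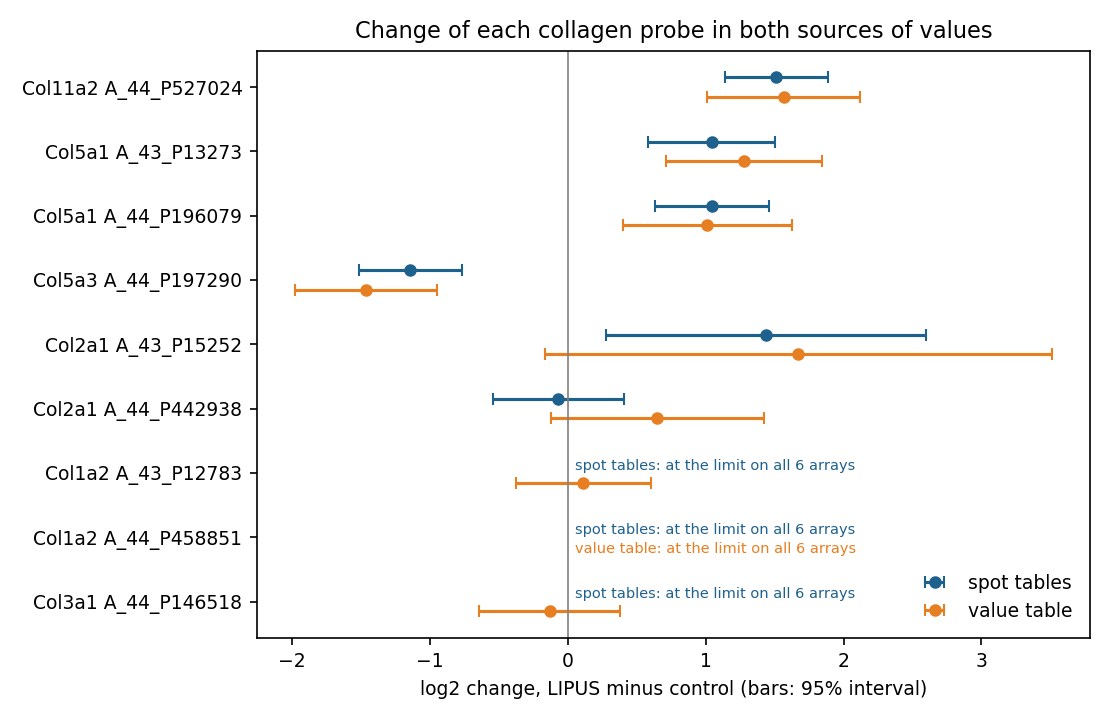
Log2 change of each of the 9 collagen probes, LIPUS minus control, with the 95% interval from limma, in the spot tables and in the authors' value table. No point is shown where a probe was at the limit on all 6 arrays. The value-table point of Col1a2 (A_43_P12783) includes control 1, which was at the limit. The intervals, not adjusted for the number of probes, of Col11a2, both Col5a1 probes and Col5a3 lie clear of 0 in both sources, and in the value table those of Col1a2 (A_43_P12783) and Col3a1 span 0.

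Slide and treatment were partly mixed. The tilt of the scanned spot grid put control 1 and control 2 on 1 slide (0.0925 and 0.0943) and control 3 with the 3 LIPUS arrays on another (0.0522 to 0.0601), as inferred here, since the labels give no slide. Within the second slide, which has 1 control array, the log2 change was 1.49 for Col11a2, −1.25 for Col5a3, and 0.71 and 0.63 for the Col5a1 probes A_44_P196079 and A_43_P13273. The first slide holds no LIPUS array, so a fit with slide as a fixed block rests on that same contrast with 1 control array, assumed to vary like the others. In it Col11a2 (limma adjusted p = 0.0374) and Col5a3 (0.047) remained called, among 1.24% of all probes, while the Col5a1 probes (0.129 and 0.192) did not. On the second slide alone none of the 4 passed with limma (adjusted p = 0.0939 for Col11a2, 0.103 for Col5a3, and 0.192 and 0.242 for Col5a1), though all 4 had an unadjusted p under 0.05. With slide as a random block all 4 passed (limma adjusted p = 0.00232 to 0.038).

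Scaling set how many genes counted as higher. Of the 1515 calls, 666 were higher and 849 lower in LIPUS. Median centring gave 490 higher and 1022 lower, and scaling to spike-in controls, which moved the median of all probes by −0.35, gave 206 higher and 3704 lower. Under spike-in scaling Col11a2 (log2 change 1.16), both Col5a1 probes (0.69 each) and Col5a3 (−1.49) kept direction and call (limma adjusted p = 2.86e-05 to 0.0431).

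**Figure D5:**
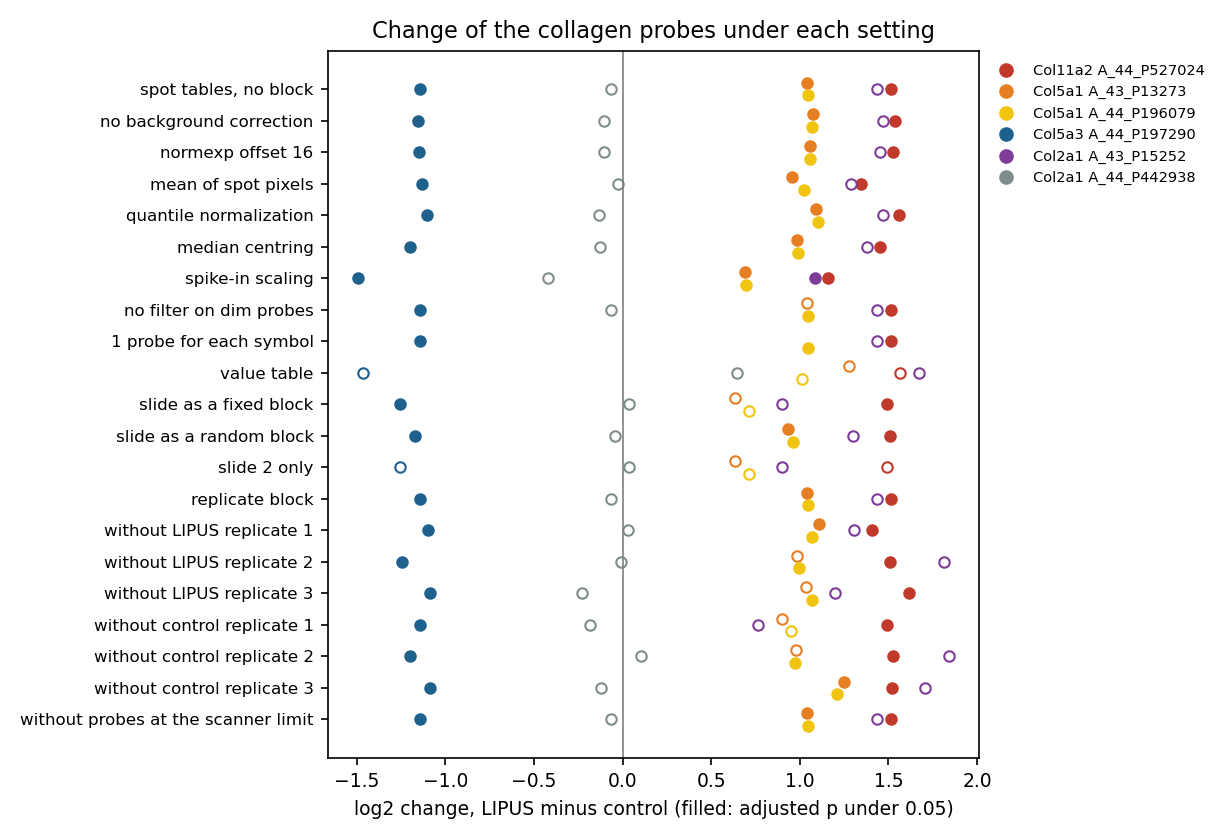
Log2 change of the 6 collagen probes under the scanner limit in the settings named on the vertical axis, LIPUS minus control, with a filled point where the limma adjusted p was under 0.05. In the settings shown, Col11a2 lay between 1.16 and 1.62 and Col5a3 between −1.49 and −1.09, while the Col5a1 probes spanned 0.63 to 1.28.

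Genes that work with these collagens were listed by role. Among proteins of the fibril surface, 6 of 16 had a probe above background. Of these, 2 were at the scanner limit throughout and 4 could be read, of which 2 rose, 0 fell and 2 did not pass, against 2.86% higher and 3.65% lower over all probes. Their median log2 change was 0.66 (0.31 under spike-in scaling), against 0.04 over all probes. Lum (NM_031050), which encodes lumican, a small proteoglycan that binds collagen fibrils, had a log2 level of 5.78 ± 0.22 in LIPUS and 4.67 ± 0.26 in control (SD, n = 3 each), a change of 1.10 ± 0.19 (SE, limma adjusted p = 0.0101). Dcn (NM_024129), which encodes decorin, a related proteoglycan, rose by 0.81 ± 0.16 (limma adjusted p = 0.0182), with 1 array at the scanner limit. Lum kept its call whichever array was left out, and Dcn lost it without LIPUS 1, LIPUS 2, control 1 or control 2 (0.0511 to 0.0794). With slide as a fixed block neither passed (0.148 and 0.0973). The cartilage protein gene Comp read 0.50 ± 0.25 and the fibril proteoglycan gene Fmod −0.23 ± 0.20, and neither passed (limma adjusted p = 0.278 and 0.550). Fn1, which encodes fibronectin, and Bgn, which encodes biglycan, were the 2 at the limit. In the authors' value table Fn1 read −0.37 (limma adjusted p = 0.639), while Bgn was at the limit there too. Another, less bright probe of Fn1 read 0.2 in the spot tables (limma adjusted p = 0.515).

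Of 34 other collagen genes, 2 had a probe with a symbol, Col4a4 (0.33 ± 0.28) and Col23a1 (−0.40 ± 0.28), both above background on only 3 arrays, and neither passed (limma adjusted p = 0.523 and 0.448). Of 10 collagen receptor genes, 2 were measured, Itga1 (0.25 ± 0.15) and Itgb1 (0.22 ± 0.17), integrin subunits that did not pass (0.370 and 0.487). Of 10 genes for cutting procollagen ends, the enhancer gene Pcolce was above background, but at the scanner limit on each of the 6 arrays, and it read 0.36 in the authors' value table (limma adjusted p = 0.526). Of 15 transcription factor genes known to act on fibrillar collagen genes, 11 were measured. Of these 0 rose and 0 fell, against 2.86% higher and 3.65% lower over all probes. At those shares, 0 calls among 11 genes says nothing particular about them. Their median change was 0.05, or −0.30 under spike-in scaling. At an unadjusted p under 0.05 were Creb3l1, an activator of collagen I genes in osteoblasts (0.44 ± 0.19, limma adjusted p = 0.211), and Nfyb, a subunit of the CCAAT-binding factor (−0.40 ± 0.17, 0.189), whose 2 other probes read −0.09 and 0.06. Sp1, which binds GC-rich promoter elements, read 0.23 ± 0.15 (limma adjusted p = 0.430), and Sox5, a cartilage factor, −0.21 ± 0.18 (0.518).

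The cultures held several cell types, and in a mixed sample fewer cells of a type and less RNA per cell cannot be told apart. Of 12 osteoblast and stromal markers, 10 were above background and 7 could be read, Cxcl12 only in part. Of the 7, 1 rose (Dmp1), 0 fell and 6 did not pass, against 2.86% higher and 3.65% lower over all probes. Runx2 and Pdgfra had no probe with a symbol. Bglap, Spp1 and Sparc were at the scanner limit throughout. Cxcl12 was at the limit on 3 arrays, and its control level (6.19) was that of probes at the limit throughout. Its change of 0.03 is therefore capped. It read −0.74 in the authors' value table (limma adjusted p = 0.248). Its other probe read −0.4 in the spot tables (limma adjusted p = 0.224). In the authors' value table Bglap read 1.97 (limma adjusted p = 0.0761) and Spp1 2.07 (0.0629), with 3 and 1 arrays above 90% of the limit, and Sparc was near the limit on all 6. The median log2 change of the 7 was 0.18, or −0.18 under spike-in scaling. The summed level of the 6 under the scanner limit was 88.5 to 102.5 times the arrays' 75th percentile in LIPUS and 61.4 to 64.8 times in control. That sum is weighted to the bright Alpl, Ibsp and Dmp1, while Pdgfrb (−0.05) and Thy1 (0.05) moved little. Sp7 (0.18 ± 0.22) was dim, above background on 5 arrays, and read 1.17 in the authors' value table (limma adjusted p = 0.482). Of 8 macrophage markers, 6 were measured and 4 fell, against 3.65% of all probes. Itgam (−0.51 ± 0.23, limma adjusted p = 0.224) and Cd68 did not pass. Cd68 was at the scanner limit on 3 arrays, so its change of −0.02 is capped. It read −0.95 in the authors' value table (limma adjusted p = 0.132). Without LIPUS 1, LIPUS 2, LIPUS 3 or control 1, Csf1r was no longer called (limma adjusted p = 0.0642 to 0.0831). The summed level of the 5 macrophage markers under the limit was 21.8 to 25.2 times the arrays' 75th percentile in LIPUS and 60.5 to 67.8 times in control. This macrophage sum is weighted to the bright Aif1, with a log2 level of 3.81 in LIPUS and 5.35 in control. Of 6 endothelial markers 2 were measured and 1, Esam, fell, though not with slide as a fixed block (limma adjusted p = 0.0553). Their sums were 1.35 to 2.02 in LIPUS and 4.11 to 4.91 in control, while Pecam1 was not above background. In control Esam (log2 level 1.76) was brighter than Kdr (0.04), whose change of −0.60 did not pass (limma adjusted p = 0.0946). Of 11 chondrocyte markers, 3 (Acan, Hapln1 and Comp) were measured and 0 passed, with sums of 1.80 to 2.32 in LIPUS and 0.940 to 1.82 in control, and Matn1 and Cnmd were not above background. Of 6 fibroblast and tendon markers 2 were above background, of which S100a4 was at the scanner limit throughout and the other, Tnmd, did not pass. Of 5 erythroid and lymphoid markers 0 were measured, with Hbb not above background. The part of these cell types in the collagen changes was not tested.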

How the data were processed

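Cy3-labelled RNA of 3 LIPUS and 3 control samples was scanned on 6 arrays. Per the file headers, the deposited tables give spot and background brightness as intensity, the share of pixels at the scanner limit in percent and spot position as a score. The authors' value table is on a log2 scale, found from its values: each column's 75th percentile is 0, and undoing the log2 from the column minimum gave whole numbers (tolerance 0.01) for 98.67% to 98.95% of probes. The sources used here do not give the scanner, its software or how the authors made it. Its log2 values were used for collagen probes at the scanner limit, and are named wherever they are given for other genes. The counts and medians of the other gene lists use the spot tables, without genes at the limit on every array.

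Each table holds 45220 spots, 43379 of them gene spots. Spot medians were background-corrected with normexp (offset 50), put on the log2 scale, averaged for each probe and centred on the array's 75th percentile. Probes brighter than 95% of the 153 negative controls on at least 3 arrays were tested one by one with limma 3.58.1 (lmFit and eBayes, R 4.3.3), with group as the only term, two-sided, and Benjamini-Hochberg adjustment over all of them. Symbols came from a RefSeq table of assembly GRCr8, used here for names, in which 10768 of 41012 probes matched. Slides were inferred from grid tilt. Arrays had 53.5% to 61.9% of probes above background, and 349 ± 31.0 probes at the limit in LIPUS and 430 ± 41.4 in control (SD, n = 3 each, exact permutation p = 0.1, the smallest possible). The number of arrays limits the precision. The fit was tested on simulated data. Plots used matplotlib 3.10.9 in Python 3.11.15.

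Every collagen listed is described with every probe, and from each list up to 4 genes with the smallest unadjusted p are named, with markers given by counts. Fmod, Bgn and the markers named were chosen after their values were seen. Members and lists were chosen with earlier results of these data known.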

Additional observations from a re-analysis of the deposited data

How the results depend on the processing

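Against 1515 calls over all probes and 4 of the 9 collagen probes, spike-in scaling gave 3910 calls, no filter on dim probes 686, slide as a fixed block 289 with 2 collagen probes, and 1 array left out at a time 670 to 2288 with 2 to 4 collagen probes (the low ends without control 1). There were 675 calls without LIPUS 2, 735 without LIPUS 1, 821 without control 2 and 834 without LIPUS 3 and 2288 without control 3. The value table gave 0 calls and 0 collagen probes with limma (5337 probes and 4 collagen probes at an unadjusted p under 0.05), with 1 array left out too, and 3 collagen probes over probes above background, though 0 with slide as a fixed block as well. The second slide alone gave 0 and 0 (3527 and 4). The cause was not tested. The fit over probes above background, and block and spike-in fits of the value table, were chosen after seeing the data. With the replicate number as a block there were 1241 calls and 4 collagen probes. Same-numbered arrays did not deviate together (correlations of −0.02 to 0.01). With so few arrays these values do not show whether the numbers pair the samples, and pairing by animal or culture was not tested.

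Direction turned for probes at the limit or not called. Col1a2 read −3e-04 (A_43_P12783) and Col3a1 −7e-04 with quantile normalization. With spike-in scaling Col1a2 read −0.11 (A_43_P12783) and −0.10 (A_44_P458851), and Col3a1 −0.11. In the value table Col3a1 read −0.13 and the dim Col2a1 probe 0.65, and Col1a2 (A_43_P12783) −0.28 with spike-in scaling there. The dim Col2a1 probe read 0.0371 with slide as a fixed block and on the second slide alone, and −0.23 to 0.10 with 1 array left out. The number of probes at the limit kept its direction with spots that had at least 50% of pixels at the limit. Signal at or near the scanner limit, for Col1a2 and Col3a1, and near background, for the dim Col2a1 probe, limits what could be read.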
